A study of Mus musculus with 622 samples.

Results

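Beta cells with abundant RNA of the mitophagy receptor gene Bnip3 were set against beta cells with almost none, within single-cell RNA sequencing of mouse pancreatic islets. Of 622 islet cells, 593 had at least 1000 genes at 1 RPKM or more (a read number corrected for gene length and for the cell's total of mapped reads), and 360 of these also drew at least 99% of their insulin, glucagon, somatostatin and pancreatic polypeptide RNA from Ins1 and Ins2. With cells at 100 RPKM or more of the myeloid gene Tyrobp left out, 352 beta cells remained. These were then chosen by their Bnip3 level: 86 cells had Bnip3 at 160 RPKM or more and are called Bnip3-high, and 111 cells had Bnip3 below 5 RPKM and are called Bnip3-low. The other 155 beta cells lay between these bounds and entered neither side. All cells came from wild-type C57BL/6 islets, were captured on a Fluidigm C1 chip that lyses and amplifies each cell in its own chamber, and gave 1 library each. The labels hold 1 group and give no animal, chip, age or treatment for a cell, so all cells counted as 1 sample, no p-value was computed, and every difference below has no replicate check.

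BNIP3 sits in the outer mitochondrial membrane and binds LC3 proteins on the forming autophagosome, which marks the mitochondrion for removal (mitophagy). Its gene is a classic target of hypoxia-inducible factor (HIF), the transcription factor that accumulates when prolyl hydroxylases lack oxygen and that also raises glycolytic enzymes, glucose transporters and angiogenic factors. Beta cells rely on mitochondrial oxidation of glucose carbon to trigger insulin release, and they normally keep lactate dehydrogenase A and monocarboxylate transport low.

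Bnip3 (Entrez gene 12176) lies at chr7:138890836-138909506 on GRCm38, where the pseudogene Gm18258 is annotated within the same span. The sequences below are the 250 bases before the RefSeq transcription start (GRCm38.p6) of Bnip3 and of 4 HIF target genes. These 4 stood among the highest genes in cells with Bnip3 at 500 RPKM or more in the full-precision columns. Those columns are 1 of 2 column sets defined below. In such cells of the other set, Ero1a, Pgk1 and Egln1 were lower than in Bnip3-low cells, with log2 ratios of -1.16, -0.94 and -1.69. Fam162a was higher there, at 3.51. These windows were picked because they hold ACGTG, the core that HIF binds, and capitals mark ACGTG on either strand, so that it also appears as CACGT. The windows are Bnip3 at chr7:138909507-138909756 (minus strand), Ero1a at chr14:45318573-45318822 (minus), Pgk1 at chrX:106186850-106187099 (plus), Fam162a at chr16:36071562-36071811 (minus) and Egln1 at chr8:124949255-124949504 (minus).

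Bnip3: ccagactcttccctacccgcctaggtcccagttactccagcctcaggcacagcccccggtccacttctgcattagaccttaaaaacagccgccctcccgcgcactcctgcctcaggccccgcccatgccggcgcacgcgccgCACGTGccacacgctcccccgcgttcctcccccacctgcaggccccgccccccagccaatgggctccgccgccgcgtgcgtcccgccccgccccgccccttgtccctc

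Ero1a: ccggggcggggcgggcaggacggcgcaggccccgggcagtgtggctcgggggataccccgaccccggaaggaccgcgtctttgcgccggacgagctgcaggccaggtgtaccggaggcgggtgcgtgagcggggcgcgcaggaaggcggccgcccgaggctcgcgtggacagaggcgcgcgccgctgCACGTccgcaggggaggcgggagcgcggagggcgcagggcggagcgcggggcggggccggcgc

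Pgk1: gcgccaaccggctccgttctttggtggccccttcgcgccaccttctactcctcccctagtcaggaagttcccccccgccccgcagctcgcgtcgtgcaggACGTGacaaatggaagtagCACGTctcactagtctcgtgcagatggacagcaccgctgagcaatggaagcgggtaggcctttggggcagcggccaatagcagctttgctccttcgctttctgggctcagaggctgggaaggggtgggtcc

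Fam162a: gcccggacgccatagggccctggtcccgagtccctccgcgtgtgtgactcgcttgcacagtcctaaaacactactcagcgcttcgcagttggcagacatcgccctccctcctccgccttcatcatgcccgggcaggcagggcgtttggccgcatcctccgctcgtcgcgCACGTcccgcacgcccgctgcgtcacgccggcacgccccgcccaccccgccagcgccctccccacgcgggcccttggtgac

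Egln1: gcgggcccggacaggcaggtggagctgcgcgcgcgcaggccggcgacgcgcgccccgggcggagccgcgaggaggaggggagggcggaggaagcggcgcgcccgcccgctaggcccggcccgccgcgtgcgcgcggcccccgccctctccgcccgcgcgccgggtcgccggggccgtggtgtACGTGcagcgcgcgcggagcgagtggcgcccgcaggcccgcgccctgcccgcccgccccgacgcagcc

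In Bnip3 the matches on both strands overlapped as CACGTG, which began 108 bases before the start. Pgk1 held 2 separate matches, 150 and 131 bases before the start, and Ero1a, Fam162a and Egln1 held 1 each at 63, 81 and 68 bases. The core was present in 16.6% of all 32851 RefSeq windows of this length, in either orientation, and in 28.3% of the 4060 compared genes that had a window. It stood before 11 of 14 compared hypoxia genes and 5 of 13 compared glycolysis genes with a window. Of the 15 genes highest in full-precision cells with Bnip3 at 500 RPKM or more, 6 of 13 with a window held it. So did 2 of 13 with a window among the 15 higher genes named below by their ratios in both column sets. Mif, Tpi1 and Eno1 had no match in their windows. The hypoxia list was drawn from known HIF targets, so these shares are a description of the list.

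By number format the columns fell into a full-precision set of 359 and a set of 263 with 4 decimals, called rounded here, and the labels do not say what the split stands for. Bnip3-high cells numbered 58 in full-precision and 28 in rounded columns, against 42 and 69 Bnip3-low cells. Every comparison was made inside each column set, and the log2 ratios of the sets were averaged with equal weight. Depth recovered from the RPKM steps had a median of 915664 reads in Bnip3-high and 816142 in Bnip3-low cells of the full-precision columns, and of 1647060 and 1704750 reads in the rounded columns. Genes at 1 RPKM or more had medians of 5730.5 in Bnip3-high and 5548 in Bnip3-low full-precision cells. In the rounded columns the gap was wider, with medians of 4388.5 and 3562 genes, and it remained with each cell thinned to 250000 reads, at 4448 and 3663, with 1 shallower Bnip3-high cell of each column set left out. Mitochondrially encoded RNA reached 20% of a cell's RPKM in 13 of 58 Bnip3-high and 14 of 42 Bnip3-low full-precision cells, and in 0 of 28 and 14 of 69 rounded cells. In an alternative with 70 cells a side matched on detected genes within column sets, the median log2 ratio over all genes was 0.08, against 0.21 without matching.

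Both sides expressed beta cell genes. Ins2 averaged 233752 RPKM in Bnip3-high and 282619 RPKM in Bnip3-low full-precision cells, and 440695 and 485920 RPKM in rounded cells. The amylin gene Iapp and the glucose-6-phosphatase gene G6pc2 reached 1 RPKM in every cell of both sides, whereas Mafa, a beta cell transcription factor, reached it in 1 of 42 Bnip3-low full-precision cells and in no other cell of either side. The summed RPKM of 8 alpha cell markers, a sum that the insulin rule bounds through glucagon, had medians of 382 in Bnip3-high and 558 in Bnip3-low full-precision cells, and of 969 and 539 in rounded cells. Of these markers, the glucagon gene Gcg reached 1 RPKM in 58 of 58 Bnip3-high and 42 of 42 Bnip3-low full-precision cells and in 27 of 28 and 58 of 69 rounded cells. The summed RPKM of 10 acinar, 8 endothelial and 6 glial markers had a median of 0 on both sides in both column sets, and that of 8 ductal markers had medians of 87.2 in Bnip3-high and 105 in Bnip3-low full-precision cells and of 97.1 and 93.6 in rounded cells. Single Bnip3-high full-precision cells carried more endothelial and immune RNA. Their endothelial sum reached 903 RPKM and their immune sum 1070.3 RPKM, against highest sums of 59.8 and 85.6 RPKM in Bnip3-low cells. All 8 endothelial markers reached 1 RPKM in some Bnip3-high cell, against 3 of 8 in Bnip3-low cells. In rounded columns the endothelial sum again reached higher in Bnip3-high cells, at 39.7 RPKM against 1.11 RPKM in Bnip3-low cells. There 7 of 8 endothelial markers reached 1 RPKM in some Bnip3-high cell, against 1 of 8 in Bnip3-low cells. Acinar and immune sums in rounded columns reached higher on the Bnip3-low side, at 84.5 and 299.8 RPKM, against 13.2 and 170.3 RPKM in Bnip3-high cells. There 1 of 10 acinar markers reached 1 RPKM in some Bnip3-high cell, against 10 of 10 in Bnip3-low cells, and the myeloid gene Lyz2 did so in 0 of 28 Bnip3-high and 24 of 69 Bnip3-low cells. The full-precision Bnip3-low side held single cells high in PP cell markers, with the sum of Ppy, Pyy, Etv1 and Tspan8 reaching 31798 RPKM, against 1849 RPKM at most in Bnip3-high cells. The part of such cells in the results was not tested.

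Bnip3 itself chose the cells, so its values are a description. In full-precision columns it ran from 160.3 to 2862 RPKM with a median of 249.7 in Bnip3-high cells, against 0 to 4.64 RPKM with a median of 0.448 in Bnip3-low cells. In rounded columns the range was 160.5 to 993 RPKM with a median of 243 in Bnip3-high cells, against 0 to 4.11 RPKM with a median of 0 in Bnip3-low cells. The 3 cells just inside the upper bound had 160.3, 160.5 and 161 RPKM, and the 3 just outside had 159, 158 and 155 RPKM. At the lower bound the nearest cells had 4.64, 4.56 and 4.56 RPKM inside and 5.04, 6.50 and 7.38 RPKM outside. No gap in the values marked either bound, and 60 of the 111 Bnip3-low cells were at exactly 0. The upper quartile of Bnip3-high cells was 444 RPKM in full-precision and 461 RPKM in rounded columns, and 10 full-precision and 5 rounded cells reached 500 RPKM.

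**Figure D1:**
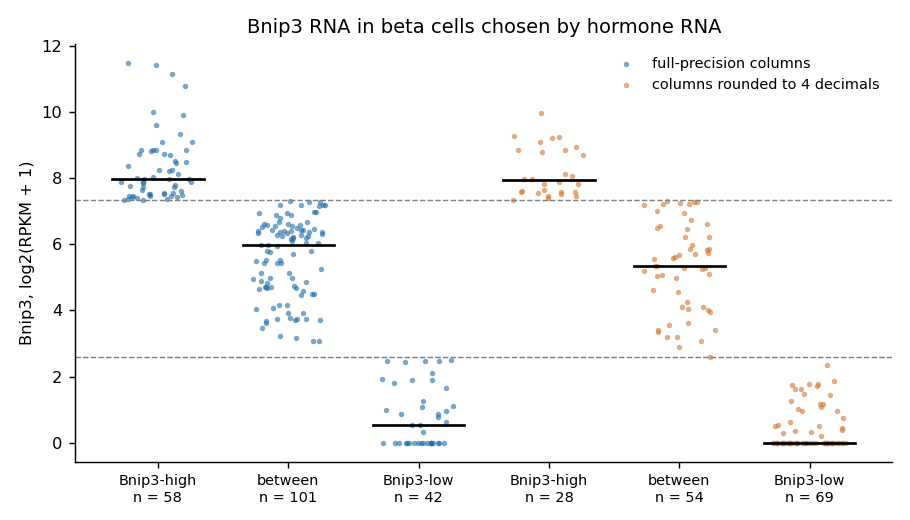
Bnip3 in each beta cell as log2(RPKM + 1), by column set, for Bnip3-high cells, cells between the bounds and Bnip3-low cells; points are cells, horizontal bars medians, and dashed lines the bounds of 160 and 5 RPKM. The values run on through both bounds, and a few full-precision cells extend to 2862 RPKM.

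Few genes followed Bnip3 in both column sets. Of 5335 genes whose mean over both sides was at least 5 RPKM in each set, 111 (2.08%) were at least 2-fold higher in Bnip3-high cells in both sets and 34 (0.637%) were at least 2-fold lower. The higher genes made up 76.6% of the 145 calls, and 65.5% after RPKM was rescaled without insulin and mitochondrial genes. With the highest cell of the higher side left out for each gene, 34 higher and 7 lower genes were past 2-fold. In the full-precision columns alone 391 genes (7.33%) were 2-fold higher and 122 (2.29%) lower, and in the rounded columns 1000 (18.7%) and 469 (8.79%). The log2 ratios of the sets, which share no cell, had a Pearson r of 0.0636 across the 5335 genes, and 54.8% of genes had the same sign in both. The median log2 ratio over all 5335 genes was 0.21, with 0.14 in full-precision and 0.26 in rounded columns, and lists are read against these values.

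**Figure D2:**
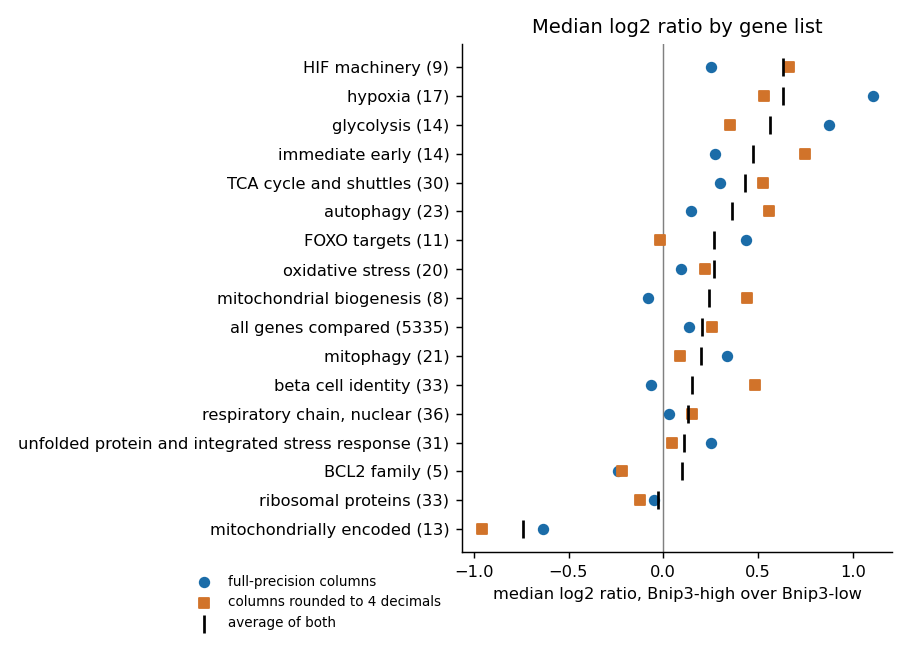
Median log2 ratio of mean RPKM, Bnip3-high over Bnip3-low, for each gene list and for all genes compared, with the number of genes compared in brackets; circles are full-precision columns, squares rounded columns, and ticks their average. The hypoxia and glycolysis lists lie to the right of all genes in both sets, and the mitochondrially encoded genes lie to the left of 0.

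Hypoxia genes were higher in Bnip3-high cells as a list. Of 53 listed genes other than Bnip3, 17 passed the level filter, and 15 of these 17 had an averaged ratio above 0, against 66.8% of all genes. Their median log2 ratio was 0.63, with 1.11 in full-precision and 0.53 in rounded columns. At least 2-fold higher in both sets were 6 of the 17, beside 2.08% of all genes, and none was 2-fold lower in both. In cells matched on detected genes the median was 0.50, beside 0.08 for all genes. The 6 were Bhlhe40, Fam162a, Hilpda, Ero1a, Jmjd6 and P4ha1. Bhlhe40 and Hilpda averaged 2.40 and 4.05 RPKM in rounded Bnip3-low cells, so they passed the filter of 5 RPKM there only through the Bnip3-high side. The list was chosen with earlier results of these data known, and 36 listed genes were too low to compare. With cells thinned to 250000 reads, the 17 genes were detected in 65.1% of Bnip3-high and 57.4% of Bnip3-low full-precision cells on average, beside 67.6% and 63.7% for all genes, and in 53.8% and 36.5% of rounded cells, beside 56.6% and 44.4%.

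Among the enzymes, Ero1a, the endoplasmic reticulum oxidase that passes electrons from new disulfide bonds to oxygen, ran from 0 to 460.1 RPKM with a median of 8.15 in Bnip3-high cells of the full-precision columns, against 0 to 96.6 RPKM with a median of 4.26 in Bnip3-low cells. In rounded columns it ran from 0 to 145 RPKM with a median of 4.06 in Bnip3-high cells, against 0 to 155 RPKM with a median of 0 in Bnip3-low cells. In rounded columns the sides overlapped over their whole range, while in full-precision columns the highest Bnip3-high cells lay above every Bnip3-low cell, and the log2 ratio of means was 1.57 in full-precision and 1.26 in rounded columns. P4ha1, the catalytic subunit of collagen prolyl 4-hydroxylase, averaged 30.2 RPKM in Bnip3-high and 13.5 RPKM in Bnip3-low full-precision cells, and 13.3 and 5.39 RPKM in rounded cells. It reached 1 RPKM in 69.0% of Bnip3-high and 57.1% of Bnip3-low full-precision cells, and in 57.1% and 26.1% of rounded cells. Jmjd6, a lysyl hydroxylase of the jumonji family, averaged 17.3 RPKM in Bnip3-high and 5.87 RPKM in Bnip3-low full-precision cells, and 23.0 and 9.80 RPKM in rounded cells.

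The remaining 3 genes past 2-fold in both sets had medians of 0 in Bnip3-low cells of both sets. Fam162a, a mitochondrial protein induced by hypoxia, averaged 48.4 RPKM in Bnip3-high and 17.5 RPKM in Bnip3-low full-precision cells, and 25.9 and 5.90 RPKM in rounded cells. Its median in Bnip3-high cells was 5.93 RPKM in full-precision and 0 in rounded columns. Bhlhe40, a basic helix-loop-helix repressor of the circadian and hypoxia programs, averaged 20.8 RPKM in Bnip3-high and 7.26 RPKM in Bnip3-low full-precision cells, and 15.1 and 2.40 RPKM in rounded cells. Hilpda, a lipid droplet protein that inhibits triglyceride breakdown, was at 1 RPKM or more in 22.4% of Bnip3-high and 14.3% of Bnip3-low full-precision cells, and in 10.7% and 8.70% of rounded cells. Its rounded Bnip3-high mean of 9.53 RPKM rested mainly on 1 cell at 253 RPKM, against a Bnip3-low mean of 4.05 RPKM with a highest cell at 129 RPKM.

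Mif, Ndrg1 and Vldlr were higher mainly in the full-precision columns. Mif, a cytokine that beta cells store and secrete, averaged 404 RPKM in Bnip3-high and 132 RPKM in Bnip3-low full-precision cells, and 227 and 157 RPKM in rounded cells. Ndrg1, a stress-response gene, averaged 52.9 RPKM in Bnip3-high and 23.5 RPKM in Bnip3-low full-precision cells, but 27.4 and 27.9 RPKM in rounded cells. Vegfa, the endothelial growth factor, was almost level, at 29.0 RPKM in Bnip3-high and 28.0 RPKM in Bnip3-low full-precision cells and 35.7 and 32.6 RPKM in rounded cells. Ankrd37 and the cyclin gene Ccng2 had negative averaged log2 ratios, of -0.34 and -0.75. Vldlr, the very-low-density lipoprotein receptor, had log2 ratios of 1.25 in full-precision and 0.42 in rounded columns.

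RNAs of the oxygen-sensing machinery were compared for 9 of 17 listed genes. Their median log2 ratio was 0.63, with 0.25 in full-precision and 0.66 in rounded columns. Egln1 stands in this list and in the hypoxia list, and its averaged ratio is the median of both. The equal medians of the lists are therefore not separate results. Of the 9 compared genes, 7 had an averaged ratio above 0. None was 2-fold higher or lower in both sets, and the median was 0.19 in cells matched on detected genes. Hif1a, the oxygen-regulated subunit of HIF, averaged 15.6 RPKM in Bnip3-high and 27.8 RPKM in Bnip3-low full-precision cells, and 5.02 and 5.14 RPKM in rounded cells. Its full-precision Bnip3-low mean included 1 cell at 620.4 RPKM, and the medians were 2.96 RPKM in Bnip3-high and 1.70 RPKM in Bnip3-low cells. Arnt, the constant partner of HIF, had log2 ratios of 0.52 in full-precision and 1.79 in rounded columns. Egln1, the main prolyl hydroxylase that marks HIF for degradation and itself a HIF target, averaged 20.6 RPKM in Bnip3-high and 11.3 RPKM in Bnip3-low full-precision cells, and 10.3 and 7.31 RPKM in rounded cells. Crebbp, a histone acetyltransferase that HIF recruits, averaged 29.7 RPKM in Bnip3-high and 12.5 RPKM in Bnip3-low full-precision cells, and 21.1 and 12.9 RPKM in rounded cells.

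Glycolysis genes were higher in Bnip3-high cells by a smaller margin, and most of it lay in the full-precision columns. Of 30 listed genes 14 were compared, 13 had an averaged ratio above 0, and the median log2 ratio was 0.56, with 0.88 in full-precision and 0.35 in rounded columns. In full-precision columns all 14 were above 0 and 6 were at least 2-fold higher, beside 7.33% of all genes, whereas in rounded columns 11 were above 0 and 2 were at least 2-fold higher, beside 18.7%. In cells matched on detected genes the list's median was 0.36. Only Ldhb, the heart-type lactate dehydrogenase, was 2-fold higher in both sets, and it reached 1 RPKM in just 37.9% of Bnip3-high and 26.2% of Bnip3-low full-precision cells and in 21.4% and 14.5% of rounded cells.

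Along the pathway, the glucose transporter gene Slc2a2 differed little in full-precision columns, while Slc2a1 was too low to compare. Slc2a2, the GLUT2 glucose transporter of beta cells, averaged 173 RPKM in Bnip3-high and 161 RPKM in Bnip3-low full-precision cells, and 135 and 94.6 RPKM in rounded cells. Larger differences in full-precision columns were not confined to the enzymes from triose phosphate onwards. The aldolase gene Aldoc, which acts before them, averaged 23.2 RPKM in full-precision cells with Bnip3 at 500 RPKM or more. It averaged 10.8 RPKM at 160 to 500 RPKM of Bnip3 and 5.80 RPKM in Bnip3-low cells. Over all full-precision Bnip3-high cells, the later enzymes Gapdh and Eno2 had lower ratios than Aldoc. The phosphofructokinase genes Pfkl and Pfkp, which act before aldolase, were too low to compare. Pgk1, which makes the first ATP of the pathway, ran from 0 to 1469 RPKM with a median of 82.2 in Bnip3-high full-precision cells. In Bnip3-low full-precision cells it ran from 0 to 413 RPKM with a median of 27.8. In rounded columns Pgk1 had medians of 5.63 RPKM in Bnip3-high and 0.750 RPKM in Bnip3-low cells, and log2 ratios were 1.77 in full-precision and 0.39 in rounded columns. Eno1, the enolase, averaged 292 RPKM in Bnip3-high and 102 RPKM in Bnip3-low full-precision cells, while in rounded cells the means lay the other way, at 83.9 and 104 RPKM. Tpi1, triose phosphate isomerase, averaged 189 RPKM in Bnip3-high and 75.0 RPKM in Bnip3-low full-precision cells, although its median was lower in Bnip3-high cells, at 30.7 against 46.0 RPKM. Pkm, the muscle-type pyruvate kinase, differed more in rounded columns, with log2 ratios of 0.38 in full-precision and 1.16 in rounded columns.

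**Figure D3:**
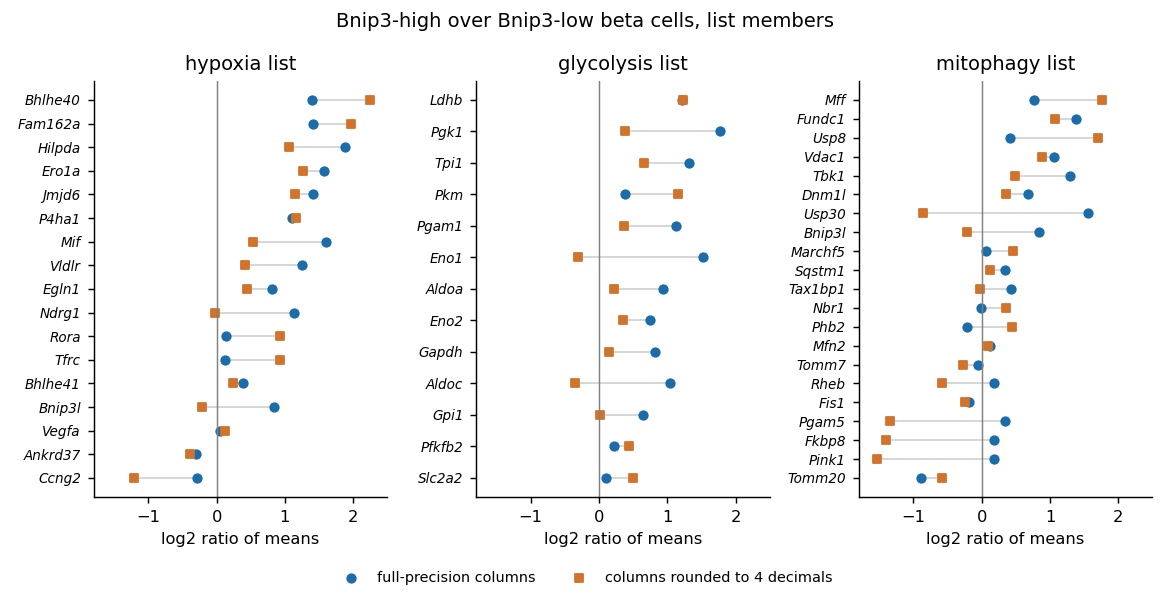
Log2 ratio of mean RPKM, Bnip3-high over Bnip3-low, for the compared genes of the hypoxia, glycolysis and mitophagy lists, with 1 glycolysis gene not drawn; circles are full-precision and squares rounded columns, joined by a grey line. The 6 hypoxia genes at the top exceed a ratio of 1 in both sets, most glycolysis genes are farther right in full-precision columns, and mitophagy genes lie on both sides of 0.

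Mitophagy genes did not follow Bnip3 as a list. Of 33 listed genes 21 were compared, and 14 had an averaged ratio above 0, beside 66.8% of all genes. Their median log2 ratio was 0.20, beside 0.21 for all genes, with 0.34 in full-precision and 0.09 in rounded columns, and it was 0.03 in cells matched on detected genes. Fundc1 was the one member 2-fold higher in both sets. This outer-membrane receptor, which like BNIP3 binds LC3, averaged 49.6 RPKM in Bnip3-high and 18.3 RPKM in Bnip3-low full-precision cells, and 52.8 and 24.5 RPKM in rounded cells. Fewer Bnip3-high than Bnip3-low full-precision cells held it at 1 RPKM, 62.1% against 69.0%, so its higher mean came from higher values in the cells that had it.

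Bnip3l (NIX), the closest relative of Bnip3 and a mitophagy receptor in its own right, differed between the sets. It averaged 43.2 RPKM in Bnip3-high and 23.7 RPKM in Bnip3-low full-precision cells, but 12.2 and 14.4 RPKM in rounded cells. Vdac1, the outer-membrane channel for metabolites, had log2 ratios of 1.05 in full-precision and 0.88 in rounded columns. Mff and Dnm1l, the fission adaptor and the fission GTPase, had averaged log2 ratios of 1.26 and 0.52. Pink1, the kinase that builds up on damaged mitochondria and starts ubiquitin-dependent mitophagy, averaged 13.6 RPKM in Bnip3-high and 11.8 RPKM in Bnip3-low full-precision cells, and 4.96 and 16.3 RPKM in rounded cells. The cargo receptor gene Sqstm1 (p62) was close to level, at 195 RPKM in Bnip3-high and 154 RPKM in Bnip3-low full-precision cells and 103 and 94.3 RPKM in rounded cells. Tomm20, an outer-membrane import receptor often used as a measure of mitochondrial mass, averaged 6.08 RPKM in Bnip3-high and 12.0 RPKM in Bnip3-low full-precision cells, and 5.93 and 9.36 RPKM in rounded cells. General autophagy genes had a median log2 ratio of 0.36 over 23 compared genes, with 0 of them at 2-fold in both sets, and one of 0.17 in cells matched on detected genes.

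All 13 mitochondrially encoded messenger RNAs had lower means in Bnip3-high cells in both column sets. Their median log2 ratio was -0.74, with -0.64 in full-precision and -0.96 in rounded columns, and ND2, a subunit of complex I, was 2-fold lower in both. ND2 ran from 22.9 to 11055 RPKM with a median of 2231 in Bnip3-high full-precision cells, against 356 to 59670.2 RPKM with a median of 3223 in Bnip3-low cells. COX3, a subunit of complex IV, averaged 20447 RPKM in Bnip3-high and 31772 RPKM in Bnip3-low full-precision cells, and 23019.5 and 40651 RPKM in rounded cells. With medians over cells in place of means, the median log2 ratio of the 13 genes was -0.21. Without cells at 20% or more mitochondrial RNA it was -0.07, a selection made on the compared RNA itself. With Bnip3-low cells matched to Bnip3-high cells on detected genes it was -0.35, and with at least 3000 genes per cell it was -0.15. Nuclear genes of the respiratory chain had a median log2 ratio of 0.13 over 36 compared genes, and 30 tricarboxylic acid cycle and shuttle genes had one of 0.43, with 0 genes of either list at 2-fold in both sets.

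Within the full-precision columns, the hypoxia and glycolysis difference was concentrated in the 10 cells with Bnip3 at 500 RPKM or more. This bound was chosen after the values were seen. Over Bnip3-low cells of the same columns, these 10 cells had a median log2 ratio of 2.34 across the 17 hypoxia genes and 1.87 across the 14 glycolysis genes, beside 0.18 over all genes. At least 2-fold higher were 14 of the 17 hypoxia genes and 10 of the 14 glycolysis genes, beside 14.4% of all genes. The other 48 full-precision Bnip3-high cells, at 160 to 500 RPKM, had medians of 0.23 and 0.49, beside 0.11 over all genes, and 2 hypoxia and 2 glycolysis genes at 2-fold, beside 7.20%. With each of the 10 cells left out in turn, the hypoxia median stayed between 2.04 and 2.49 and the glycolysis median between 1.72 and 1.99. The mitophagy list did not join them, with a median of 0.28 in the 10 cells and 0.30 in the 48.

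The 5 rounded cells with Bnip3 at 500 RPKM or more did not show the same picture. Their median log2 ratio over Bnip3-low cells of the rounded columns was -0.16 for the hypoxia list and -0.01 for the glycolysis list, beside -0.14 over all genes. At least 2-fold higher were 5 of 17 hypoxia and 1 of 14 glycolysis genes, beside 23.0% of all genes, and at least 2-fold lower were 7 and 3, beside 32.1%. The other 23 rounded Bnip3-high cells had medians of 0.53 and 0.33, beside 0.21 over all genes. In them 7 of 17 hypoxia and 2 of 14 glycolysis genes were at 2-fold, beside 17.9% of all genes. In the 5 cells Bnip3 reached 993 RPKM, against 2862 RPKM in the full-precision columns, where 5 of the 10 cells lay above 1000 RPKM. Why the column sets differ was not tested.

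Among 1996 compared genes that averaged 20 RPKM or more in the 10 cells and reached 1 RPKM in at least 80% of them, the 15 with the highest ratios over Bnip3-low cells included 7 of the 12 hypoxia and 3 of the 10 glycolysis genes ranked, which together made up 1.10% of the 1996. The level asked of the 10 cells themselves keeps out genes that are low in them. In order these 15 were Ero1a, Pgk1, Fam162a, Tpi1, Eno1, Mif, Bhlhe40, Fpgt, Psmd10, Grhpr, P4ha1, Egln1, Jmjd6, Cryl1 and Gdpd1. Pgk1 ran from 82.4 to 1430.0 RPKM with a median of 533 in the 10 cells, against 0 to 413 RPKM with a median of 27.8 in Bnip3-low cells, and 7 of the 10 cells lay above the highest Bnip3-low cell. Mif ran from 314 to 1855 RPKM with a median of 878 in the 10 cells, against 0 to 709.9 RPKM with a median of 97.0 in Bnip3-low cells, again with 7 of 10 above the highest. Eno1 had a median of 789 RPKM in the 10 cells and 53.3 RPKM in Bnip3-low cells, with 6 of 10 above the highest Bnip3-low cell at 595 RPKM. Tpi1 averaged 635 RPKM in the 10 cells and 75.0 RPKM in Bnip3-low cells. Ero1a had a log2 ratio of 3.33, from means of 143 RPKM in the 10 cells and 13.2 RPKM in Bnip3-low cells. Grhpr, the glyoxylate and hydroxypyruvate reductase, and the proteasome chaperone gene Psmd10 belonged to neither list, with log2 ratios of 2.79 and 2.79. The 15 genes picked in the same way from the 5 rounded cells, out of 1282 ranked, included 0 of 4 hypoxia and 0 of 4 glycolysis genes ranked and were led by Scrn1, Arrdc1 and Scamp4.

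**Figure D4:**
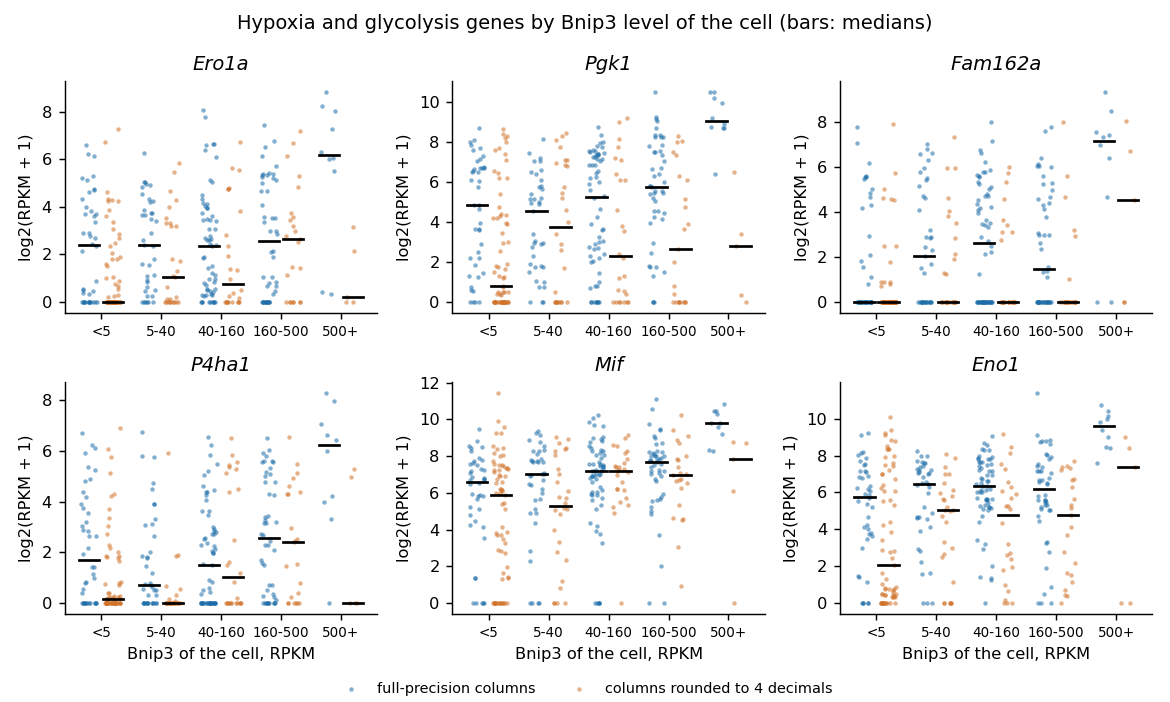
RNA of 6 hypoxia and glycolysis genes in each beta cell as log2(RPKM + 1), by the Bnip3 level of the cell from below 5 to 500 RPKM or more; blue points are full-precision and orange points rounded columns, and bars are medians. The medians of the full-precision cells stand apart at 500 RPKM or more, while those of the 4 lower levels and of the rounded cells lie lower, with Pgk1 at medians of 533 and 6.08 RPKM in the highest level of the 2 sets.

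The same 10 full-precision cells carried hypoxia genes that were too low to compare across the whole table. Slc2a1, the GLUT1 glucose transporter that hypoxia induces, averaged 46.3 RPKM in the 10 cells, 2.89 RPKM in the 48 and 4.92 RPKM in Bnip3-low full-precision cells, and it reached 1 RPKM in 6 of 10, 9 of 48 and 9 of 42 cells. P4ha2, a second collagen prolyl hydroxylase subunit, averaged 73.1 RPKM in the 10 cells, 14.4 RPKM in the 48 and 5.73 RPKM in Bnip3-low cells. Kdm3a, an oxygen-dependent histone demethylase, averaged 22.3 RPKM in the 10 cells, 3.36 RPKM in the 48 and 2.48 RPKM in Bnip3-low cells. Pdk1, the kinase that closes pyruvate dehydrogenase, averaged 22.9 RPKM in the 10 cells, 8.52 RPKM in the 48 and 3.92 RPKM in Bnip3-low cells. The phosphofructokinase genes Pfkl and Pfkp averaged 28.8 and 25.9 RPKM in the 10 cells and 4.62 and 1.81 RPKM in Bnip3-low cells. Ldha, whose silencing is a mark of beta cells, was at 1 RPKM or more in 2 of 10 cells, 4 of 48 and 1 of 42 Bnip3-low cells. Of the 36 hypoxia genes below the filter, 11 averaged at least 5 RPKM in the 10 cells and 2 did so in Bnip3-low cells, and of 16 glycolysis genes 7 and 2 did. Over all 20550 genes below the filter with RNA in any of these cells, 8.62% averaged at least 5 RPKM in the 10 cells and 6.36% did so in Bnip3-low cells. Car9, Egln3 and Ndufa4l2, HIF targets in many other cell types, were at 0 RPKM in all of the 10 cells. In the 5 rounded cells at that Bnip3 level, Kdm3a and Pdk1 averaged 0.0366 and 0.464 RPKM, against 4.30 and 0.788 RPKM in Bnip3-low rounded cells. Slc2a1, P4ha2, Pfkl and Pfkp averaged more in the 5 cells, at 5.85, 6.92, 5.23 and 15.2 RPKM against 0.464, 4.53, 3.06 and 2.32 RPKM. Slc2a1 and P4ha2 each reached 1 RPKM in 1 of the 5.

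Bnip3l was also high in the 10 cells, at a mean of 124 RPKM, against 26.2 RPKM in the 48 cells and 23.7 RPKM in Bnip3-low cells. Its values there ran from 0.212 to 326 RPKM with a median of 121. In the 5 rounded cells it averaged 3.16 RPKM, against 14.4 RPKM in Bnip3-low rounded cells. Pink1 was lower in the 10 cells, with 2.24 RPKM against 11.8 RPKM in Bnip3-low cells.

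Hypoxia and glycolysis genes were also counted cell by cell. Each beta cell was given the number of the 31 compared hypoxia and glycolysis genes that exceeded the 90th percentile of Bnip3-low cells of its own column set, a level that fixes the Bnip3-low cells near 3 genes. The 10 full-precision cells at 500 RPKM or more had a median of 15.5 genes and a range of 5 to 23, against a median of 4 in the 48 cells at 160 to 500 RPKM and 3 in Bnip3-low cells. As a share of the 31 genes the median of the 10 cells was 50.0%, beside 14.2% of all 5335 compared genes exceeding the same percentile, and the share of the 31 was the larger in all 10. The medians were 12.9%, beside 12.6%, in the 48 cells and 9.68%, beside 11.5%, in Bnip3-low cells. At least 10 genes were exceeded in 8 of the 10, 4 of the 48 and 1 of the 42 cells. In the cells between the bounds, 1 of 39 at 5 to 40 RPKM and 0 of 62 at 40 to 160 RPKM did so. In rounded columns the medians were 6 genes at 500 RPKM or more, 6 at 160 to 500 RPKM and 3 in Bnip3-low cells, and 0 of 5, 2 of 23 and 0 of 69 cells reached 10 genes. As shares these were 19.4%, 19.4% and 9.68% of the 31 genes, beside 16.4%, 15.4% and 10.5% of all compared genes. Of the 14 full-precision beta cells with at least 10 such genes, 12 were Bnip3-high.

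The 10 cells were not alike. The 4 with the most Bnip3 had 2862, 2758, 2257 and 1765 RPKM and exceeded 20, 21, 23 and 16 of the 31 genes. The next, at 1021 RPKM, exceeded 5 genes, and in it P4ha1, Fam162a, Egln1 and Hilpda were all at 0 RPKM while Mif stood at 323 RPKM. The cell with the most Bnip3 also had the lowest insulin share of the 10, at 3.97% of its RPKM, and 23.0% mitochondrial RNA. In the 10 cells as a group, the insulin share had a median of 32.5%, against 42.5% in Bnip3-low full-precision cells, and the mitochondrial share a median of 11.4%, against 12.2%. They had a median of 690568 reads and 6133.5 genes at 1 RPKM, against 816142 reads and 5548 genes in Bnip3-low cells. The part of these differences in the gene ratios was not tested, and every one of the 10 cells met the insulin rule.

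**Figure D5:**
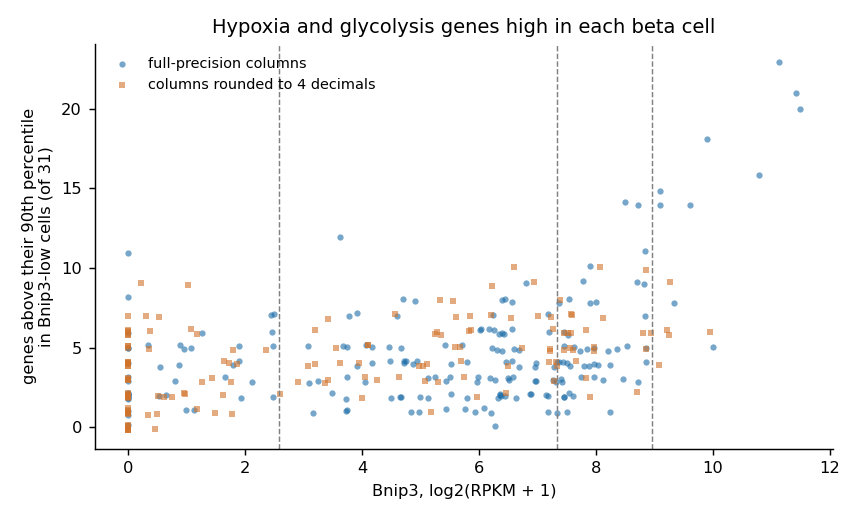
Number of the 31 compared hypoxia and glycolysis genes above their 90th percentile in Bnip3-low cells (vertical axis, slightly spread) against Bnip3 as log2(RPKM + 1) for each beta cell; dashed lines mark 5, 160 and 500 RPKM, circles are full-precision and squares rounded columns. Up to 500 RPKM most cells stay below 10 genes, and 8 of the 10 full-precision cells beyond it lie above.

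The ranking that also asked for level and detection named genes of neither list. Ranked by the smaller of the 2 sets' ratios, among genes that averaged 20 RPKM or more and reached 1 RPKM in at least 50% of cells on the higher side, the 15 highest were Zcchc7, Ifitm2, Lyrm2, Cd200, Vps4b, Arfip1, Mrpl10, Lyplal1, Ndfip2, Morf4l1, Med21, Rasd1, Fbxo3, Gpbp1 and Rnf13, out of 869 that met these levels. All 15 were at least 2-fold higher in both sets, and without the highest Bnip3-high cell of each gene the averaged ratio of 9 was at least 2-fold. Of the 15, 0 were hypoxia or glycolysis genes, but some of these failed the level or detection rule. Ero1a, with log2 ratios of 1.57 and 1.26, had a rounded Bnip3-high mean of 16.6 RPKM, under 20 RPKM. Bhlhe40, with 1.40 and 2.24, had one of 15.1 RPKM and reached 1 RPKM in under 50% of Bnip3-high cells of each set. Fam162a met the level but not the detection rule. It reached 1 RPKM in 6 of 23 rounded cells at 160 to 500 RPKM of Bnip3 and in 3 of 5 at 500 RPKM or more. Zcchc7 (chr4:44756558-44932215), a zinc-knuckle protein of the nuclear RNA surveillance complex, ran from 0 to 205 RPKM with a median of 16.9 in Bnip3-high full-precision cells, against 0 to 57.2 RPKM with a median of 1.85 in Bnip3-low cells. In rounded cells Zcchc7 had medians of 10.5 RPKM in Bnip3-high and 0 in Bnip3-low cells, and it reached 1 RPKM in 75.0% and 27.5% of cells. Its level was not highest where Bnip3 was highest, with a mean of 13.4 RPKM in the 10 cells and 31.2 RPKM in the 48.

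Morf4l1 (chr9:90091669-90114820), a chromodomain subunit of histone acetyltransferase complexes, was found in every Bnip3-high cell. It averaged 137 RPKM in Bnip3-high and 64.1 RPKM in Bnip3-low full-precision cells, and 158 and 72.7 RPKM in rounded cells. Ifitm2, an interferon-induced membrane protein, averaged 68.1 RPKM in Bnip3-high and 24.3 RPKM in Bnip3-low full-precision cells, and 51.8 and 20.3 RPKM in rounded cells. Lyrm2, a mitochondrial LYR-motif protein, averaged 42.5 RPKM in Bnip3-high and 16.7 RPKM in Bnip3-low full-precision cells, and 41.2 and 16.5 RPKM in rounded cells. Vps4b, the ATPase that disassembles ESCRT complexes, averaged 36.2 RPKM in Bnip3-high and 15.5 RPKM in Bnip3-low full-precision cells, and 51.9 and 11.0 RPKM in rounded cells. Gpbp1, a GC-rich promoter-binding protein, averaged 39.1 RPKM in Bnip3-high and 9.86 RPKM in Bnip3-low full-precision cells, and 37.5 and 17.8 RPKM in rounded cells. Another 6 of the 15, Arfip1, Ndfip2, Med21, Rasd1, Fbxo3 and Rnf13, overlap other annotated genes, from which their reads could not be told apart here. The averaged log2 ratios of the 15 ran from 1.06 in Fbxo3 to 1.98 in Rnf13. Rnf13 had 1.03 in full-precision and 2.93 in rounded columns, where its Bnip3-high median was 0.879 RPKM. Its rounded Bnip3-low mean of 4.30 RPKM was under the filter of 5 RPKM. It was thus compared there only through the Bnip3-high mean of 39.3 RPKM.

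The 15 lowest were Preb, ND2, Gmppb, Rpl10-ps3, Pabpn1, ND1, Npepl1, Ap1b1, Gmppa, Cox7c, Gm10222, ND6, ND3, COX3 and Mrpl53, and only Preb and ND2 were 2-fold lower in both sets. Preb (chr5:30951667-30960356), the exchange factor that loads Sar1 for export from the endoplasmic reticulum and that overlaps Abhd1, averaged 10.5 RPKM in Bnip3-high and 24.0 RPKM in Bnip3-low full-precision cells, and 6.68 and 20.3 RPKM in rounded cells. Gmppb and Gmppa, the catalytic and regulatory subunits of GDP-mannose pyrophosphorylase, had averaged log2 ratios of -1.06 and -0.80. Gmppb overlaps Rnf123. Gmppa averaged 24.0 RPKM in Bnip3-high and 40.0 RPKM in Bnip3-low full-precision cells, and 39.6 and 73.9 RPKM in rounded cells. Mitochondrially encoded genes made up 5 of the 15, and Rpl10-ps3 and Gm10222 are pseudogenes whose reads may belong to near-identical copies. Of the others, Cox7c and Mrpl53 encode a complex IV subunit and a mitochondrial ribosomal protein and overlap Gm22574 and Ccdc142.

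Stress lists gave single genes. Eif2ak3 (PERK), the kinase of the unfolded protein response that slows translation, was the one gene of 31 in that list at 2-fold in both sets. It averaged 13.2 RPKM in Bnip3-high and 5.53 RPKM in Bnip3-low full-precision cells, and 20.9 and 3.70 RPKM in rounded cells. That rounded Bnip3-low mean was under 5 RPKM, so Eif2ak3 passed the level filter there only through the Bnip3-high side. Ddit3 (CHOP), a transcription factor of the same response, averaged 61.2 RPKM in Bnip3-high and 28.3 RPKM in Bnip3-low full-precision cells, and 53.6 and 26.9 RPKM in rounded cells. The list's median log2 ratio was 0.11. Among 11 FOXO targets, another class of factors that can drive Bnip3, the stress gene Sesn1 was 2-fold higher in both sets. It averaged 10.2 RPKM in Bnip3-high and 1.73 RPKM in Bnip3-low full-precision cells, and 25.1 and 3.53 RPKM in rounded cells. Both Bnip3-low means were under 5 RPKM, so Sesn1 passed the level filter only through the Bnip3-high side. In rounded columns it reached 1 RPKM in 5 of 23 cells at 160 to 500 RPKM of Bnip3, with 1 cell at 376 RPKM. It did so in 1 of 5 cells at 500 RPKM or more and in 10 of 69 Bnip3-low cells. The list's median log2 ratio was 0.27. Gpx3, a secreted glutathione peroxidase, was 2-fold lower in both sets, with means of 7.05 RPKM in Bnip3-high and 24.0 RPKM in Bnip3-low full-precision cells and 5.58 and 24.7 RPKM in rounded cells. Its medians differed little, at 0.685 RPKM in Bnip3-high and 0.545 RPKM in Bnip3-low full-precision cells, so a few Bnip3-low cells made the difference. Immediate early genes had a median log2 ratio of 0.47 over 14 genes, and of 0.27 in cells matched on detected genes, with Dnajb1, a heat-shock co-chaperone, at 2-fold in both sets.

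Beta cell identity genes showed 0 of 33 at 2-fold in both sets and a median log2 ratio of 0.15, with -0.07 in full-precision and 0.48 in rounded columns, and it was -0.07 in cells matched on detected genes. Ucn3, a marker of mature beta cells, averaged 473 RPKM in Bnip3-high and 375 RPKM in Bnip3-low full-precision cells, and 629 and 288 RPKM in rounded cells. Pdx1, a core beta cell transcription factor, averaged 17.6 RPKM in Bnip3-high and 10.5 RPKM in Bnip3-low full-precision cells, and 5.05 and 5.15 RPKM in rounded cells. In the 10 full-precision cells with Bnip3 at 500 RPKM or more, Ins2 averaged 189834 RPKM and Ucn3 323 RPKM. Bnip3-low full-precision cells had 282619 and 375 RPKM. In the 5 rounded cells at that Bnip3 level, Ins2 averaged 428624 RPKM, against 485920 RPKM in Bnip3-low rounded cells. Ucn3 went the other way there, at 1283 against 288 RPKM. Ribosomal protein genes were level, with a median log2 ratio of -0.03 over 33 genes, 5 BCL2 family genes had a median of 0.10, though -0.24 in full-precision and -0.22 in rounded columns taken alone, and 8 genes of mitochondrial biogenesis had one of 0.24. Of 20 genes normally silenced in beta cells, 1 passed the level filter.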

How the data were processed

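Single-cell RNA libraries were measured for 622 islet cells. The authors deposited RPKM values, which correct reads for gene length and mapped total, for 44448 Entrez gene IDs in 622 columns, all used. CASAVA 1.8.2, FastQC and the build GRCm38 (mm10) are named in the submitters' processing notes. Which aligner and counter made the values is not given in the sources used here. RefSeq (GRCm38.p6) named 39725 IDs.

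Cells were chosen by the stated bounds on detected genes, hormones, Tyrobp and Bnip3. The ratio was log2((mean RPKM of Bnip3-high cells + 1) / (mean RPKM of Bnip3-low cells + 1)) in each column set, which understates low genes, and it was averaged over the 2 sets. A gene was compared at a mean of 5 RPKM over both sides in both sets, and a call needed 2-fold in the same direction in both. A gene low on 1 side could thus pass the filter through the other side. Named genes were the 15 highest and 15 lowest by the smaller ratio of the sets, at 20 RPKM and 50% of cells of the higher side. The members, lists and bounds were chosen with earlier results of these data known. Reads were recovered as whole multiples of each gene's RPKM step and used for depth and thinning only. Of values under 100 reads in the rounded columns, 99.94% came out whole within 0.05. No doublet caller was run, and a cell is 1 library, so no barcode is shared. The ratio was checked with known fold changes put into the real Bnip3-low cells, split at random into 2 sides, with Python 3.11.15 and numpy 2.4.6. This check did not count calls among unchanged genes. RPKM is not a count, cells are not replicates, and no test was run. A few listed genes are counted but not reported here by name. Alternatives were other pseudocounts, filters, column sets, bounds, scalings and cell selections.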

Additional observations from a re-analysis of the deposited data

How the results depend on the processing

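The count of genes at least 2-fold higher and lower in Bnip3-high cells, 111 and 34, depended on the processing. With a pseudocount of 10 it was 8 and 4, with no filter on low values 335 and 137, with medians over cells 326 and 5, and without the highest cell of the higher side 34 and 7. Full-precision columns alone gave 630 and 238, rounded columns alone 1205 and 612, and all columns pooled 645 and 215, where the level filter and the call each use 1 set of cells, with 6712, 5908 and 6438 genes compared. Bnip3-high cells from 300 RPKM gave 198 and 76, rescaled RPKM 285 and 150, Bnip3-low cells at 0 RPKM 253 higher and 44 lower, and a stricter insulin share of the hormone sum 171 higher and 50 lower. With at least 3000 genes per cell there were 76 and 41, matched on detected genes 100 and 45, and, in alternatives chosen after seeing the data, 114 and 46 under 20% mitochondrial RNA and 102 and 42 without cells at 500 RPKM of Bnip3 or more.

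The hypoxia median was above 0 in all 15 alternatives, from 0.38 to 1.12, reaching 1.12 in full-precision columns alone and 1.08 with Bnip3-high cells from 300 RPKM. The glycolysis median was above 0 in all 15, from 0.32 to 1.03, reaching 1.03 in full-precision columns alone and 1.02 with columns pooled. Without cells at 500 RPKM of Bnip3 or more they were 0.52 and 0.33, beside 0.17 over all genes. The lowest hypoxia median, with at least 3000 genes per cell, stood beside 0.059 over all genes. The lowest glycolysis median, with the stricter insulin share, stood beside 0.16. The median over all genes was itself above 0 in all 15, from 0.014 with no filter to 0.43 with medians over cells. The mitophagy median was 0.55 with medians over cells, beside that 0.43, and -0.025 with at least 3000 genes per cell, beside 0.059; the cause was not tested. The named genes were picked by their ratios in these same cells, so keeping their sign in the alternatives is no separate support. Full-precision columns alone, rounded columns alone and no filter reuse the ratios that picked them. The 15 named higher genes were above 0 in all 15 alternatives. Their averaged ratio was 2-fold or more in 9 without the highest cell and in 11 with a pseudocount of 10. In the same order, 0 and 1 of the lower ones were 2-fold lower. Of the lower ones 11 stayed below 0 with medians over cells, and 14 did so with at least 3000 genes per cell and under 20% mitochondrial RNA, where Gm10222 was above 0. Mitochondrial genes left out by the rescaling have no value there.

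No paired analysis was possible because the labels hold 1 group and the sides are cells of that group. Precision is limited by cell numbers, 10 and 5 at the highest Bnip3 level, and by depth, since 1 RPKM is a few reads and many genes were seen in a minority of cells.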
